A study of Mus musculus with 56 samples.

Results

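The 33 epithelial junction and polarity genes described here encode adhesion receptors, tight junction and desmosome proteins, a polarity protein, membrane serine proteases with their inhibitors, and epithelial transcription factors. Members were taken by gene symbol, and the rule used no measured value, but the list was chosen with earlier results of these data known. Of the 14958 genes named on the arrays, 31 were members, and Crb3 and Lad1 had no probe assigned and were not analysed here. The arrays carried long oligonucleotides and compared OV with 3T3, the first a line of epithelial cells from the mouse ovary surface and the other a mouse fibroblast line. Each value is a log2 ratio of OV over 3T3, so that 1 stands for a 2-fold higher signal in OV. One comparison used cDNA labelled without amplification from 100 μg of total RNA. The others used 10 ng of total RNA amplified by IVTIII, GA, SMART or SM37, or 10 pg amplified by SMART or GA. IVTIII is 3 rounds of T7 transcription to cRNA, GA is PCR after poly(A) tailing of the cDNA, and SMART is PCR after template switching. SM37 is SMART with changed primers and a lower temperature of cDNA synthesis. All 7 comparisons had 4 arrays with the dyes exchanged between arrays. Per the study's methods these came from 2 independent preparations of each line, so n = 4 below counts arrays and not 4 independent targets. These 28 arrays rest on RNA of the same pair of cell lines, so the spread between arrays and every p-value below measure technical error only, and fewer cells of a type cannot be told apart from less RNA per cell. A further 28 arrays compared OV with itself, or replica targets of OV or of pooled neural stem cells taken from mouse neocortex at embryonic day 11.5.

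Epithelial cells are held together by a belt of junctions. Tight junctions seal the gap between neighbouring cells through claudins, occludin and immunoglobulin-like membrane proteins that are tied to actin by plaque proteins of the ZO family, adherens junctions hold cells together through classical cadherins and catenins, and desmosomes join the keratin filaments of neighbouring cells. The ovarian surface epithelium is a modified mesothelium, a simple epithelium that is known for carrying keratins together with N-cadherin and mesenchymal genes, whereas fibroblasts classically lack tight junctions and desmosomes.

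The sources name the ratio as Cy5 over Cy3 in one place and with the dyes exchanged in another, so the direction used here is the likely one. It rests on Cdkn2a, whose locus is known to be deleted in NIH 3T3 cells and which gave 1.73, 1.47, 1.53 and 1.60 in the 4 unamplified arrays. With the other reading each sign below would turn. Mesothelial and ovarian surface markers matched the OV label: 12 of 19 tested were called higher in OV, Wt1 and Upk1b among them at mean ratios of 3.65 and 4.26, and 1 was lower. The fibroblast markers did not separate the lines, with 8 of 19 higher in OV and 6 lower. Of the immune markers 1 of 6 tested was higher, and of 7 endothelial markers none was called by the LOD of limma. Of these endothelial markers 3 had a limma p below 0.05 both before and after adjustment, beside 48.8% of all genes after adjustment. By LOD 8.81% of all genes tested in unamplified cDNA were called higher and 7.31% lower. Genes with a value on an array ranged from 10962 to 13250 in unamplified cDNA, 4804 to 6294 in IVTIII, 7487 to 12041 in GA, 8740 to 13301 in SMART, 7554 to 9403 in SM37, 1988 to 4306 in SMART at 10 pg and 4587 to 13512 in GA at 10 pg. The comparison of GA at 10 pg stood apart: across 4000 genes its mean ratios had a Pearson correlation of -0.06 with unamplified cDNA, against 0.48 to 0.80 for the other 5 amplified comparisons, although its own arrays correlated with each other at 0.46 to 0.86. Results from it are given separately below. Some labels conflict. The second channel of IVTIII array 1 is named 3T3 in one field and OV in another, and the description of GA array 2 speaks of replicas of one RNA although its title and channels name both lines. Without IVTIII array 1 the same 4 members were called, and without GA array 2 none was, as with it. Several labels give 10 μg where the methods give 10 ng, and the labels of the SMART replicas from 1 ng give 100 pg in their description.

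Members were measured unevenly. In unamplified cDNA all 31 had a value on at least 1 array and 20 had one on all 4 arrays. The number of members with any value was 27 in GA, 28 in SMART, 28 in SM37 and 29 in GA at 10 pg, but 12 in IVTIII and 6 in SMART at 10 pg. Only F11r and Perp had 4 values in SMART at 10 pg, and Perp was the only member with a value on all 28 arrays. The plot of members with a value against all genes with a value shows SM37 arrays above the line of equal share. The arrays of IVTIII, of SMART and of SMART at 10 pg lie below it. Desmoplakin (Dsp) and desmoglein 2 (Dsg2) had no value on any array of the 5 amplified comparisons other than GA at 10 pg.

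**Figure D1:**
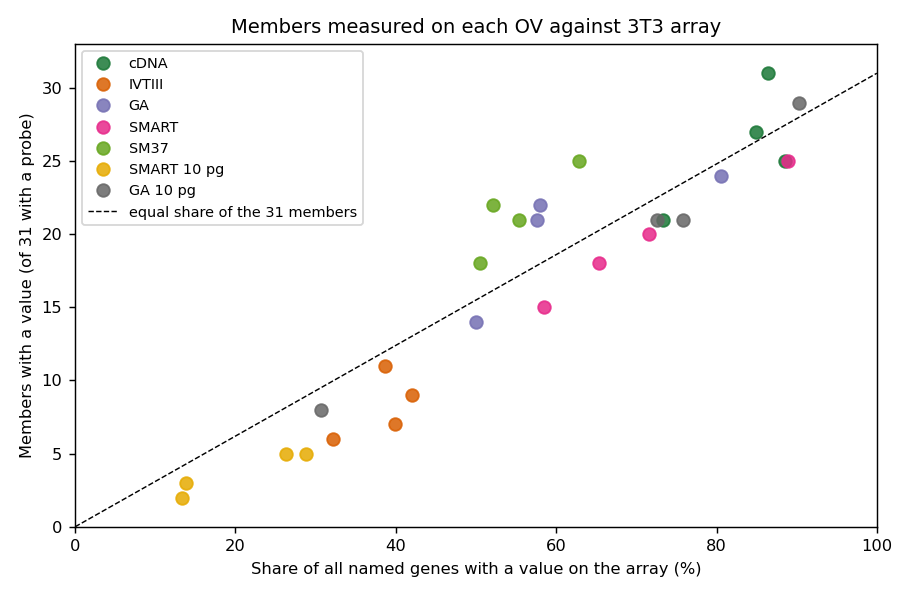
Members with a value (of 31 with a probe, vertical axis) against the share of all 14958 named genes with a value (percent, horizontal axis) on each of the 28 arrays of OV against 3T3, 1 point per array, coloured by comparison. The dashed line marks equal shares. The 4 arrays of SM37 lie above it with 18 to 25 members, and the 4 arrays of IVTIII lie below it with 6 to 11.

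The main comparison asked which members differed between the lines without amplification. Of the 20 members with 4 values, 8 were higher in OV and 1 was lower, where a call means a log odds score (LOD) above 0 in limma's empirical Bayes fit over 10148 genes. Among all genes tested 8.81% were called higher and 7.31% lower. By an adjusted p below 0.05 alone, 16 of the 20 members passed, beside 48.8% of all genes. Immunoglobulin-like proteins of the tight junction led the list, with smaller ratios for plaque proteins and for the prostasin protease pair, and the classical epithelial adhesion molecule Cdh1 was not called. The median ratio of the 20 members was 0.32, beside -0.0042 over all genes tested, and 17 of the 20 were above 0. Past 2-fold were 5 members (25%), beside 6.04% of all genes.

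The largest ratio belonged to Cxadr, the coxsackievirus and adenovirus receptor, an immunoglobulin-like protein at tight junctions. Its 4 arrays gave 3.85, 2.88, 3.80 and 3.88. The mean was 3.60 ± 0.48 (SD, n = 4), a 12.1-fold difference (limma adjusted p = 0.00010), and its 2 probes gave 3.72 and 3.48. F11r, junctional adhesion molecule A, gave 3.80, 3.02, 1.35 and 3.36, so that the third array lay well below the others. Its mean was 2.88 ± 1.07 (7.37-fold, limma adjusted p = 0.0017). Lsr, the angulin that places proteins at corners where cells meet, gave 2.40, 1.21, 2.35 and 2.41. The second array was the low one here, and the mean was 2.09 ± 0.59 (4.26-fold, limma adjusted p = 0.00071). Occludin (Ocln), a tight junction membrane protein that is not immunoglobulin-like, had 3 values of 0.14, -0.10 and 0.22 and was not tested.

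Of the plaque proteins of the tight junction, Tjp1 (ZO-1), the scaffold that binds claudins to actin, gave 1.05, 0.89, 1.01 and 1.26. All 4 arrays were close to a 2-fold difference, with a mean of 1.05 ± 0.15 (limma adjusted p = 0.00027). Tjp3 (ZO-3) and cingulin (Cgn) had 3 values each, from 0.18 to 0.21 and from 0.20 to 0.66. Among the members that are claudins, which form the seal itself, claudin 12 ran the other way and the others stayed small. Claudin 12 (Cldn12) gave -0.78, -0.59, -0.79 and -0.95 and was the only member called lower, with a mean of -0.78 ± 0.15 (limma adjusted p = 0.00064). Claudin 3 (Cldn3) gave 0.39, 0.28, 0.57 and 0.26. Claudin 7 (Cldn7) gave 0.53, 0.20, 0.59 and 0.02. Neither was called, nor was claudin 4 (Cldn4), whose mean was 0.30 ± 0.11, though all 3 had an adjusted p below 0.05 (limma, 0.0073, 0.043 and 0.011). Cldn1 and Cldn6 had values on the same 2 arrays, between 0.07 and 0.33.

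Cdh1, E-cadherin, the receptor that defines adherens junctions of most epithelia, gave -0.11, 0.13, 0.08 and 0.46. These values lie on both sides of 0, and the mean of 0.14 ± 0.24 did not differ from 0 (limma adjusted p = 0.28). Epcam, an epithelial adhesion molecule, gave 0.28, 0.27, 0.20 and 0.13 (mean 0.22 ± 0.07, limma adjusted p = 0.023, not called). As the ratio has no signal level beside it, a ratio near 0 does not say whether a gene was present in both lines or in neither.

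Desmosome genes were split. Jup (plakoglobin), which binds cadherins of both desmosomes and adherens junctions, gave 1.53, 1.24, 1.33 and 1.43, and no array fell below a 2-fold difference (mean 1.38 ± 0.13, limma adjusted p = 0.00011). Plakophilin 2 (Pkp2), a desmosomal plaque protein also found in simple epithelia and heart, gave 0.53, 0.57, 0.63 and 0.50 (mean 0.56 ± 0.05, limma adjusted p = 0.00079). Plakophilin 3 (Pkp3) gave -0.30, -0.35, -0.55 and -0.38, below 0 on every array (mean -0.40 ± 0.11, adjusted p = 0.0041 in limma), and was not called. Pkp1, the plakophilin of stratified epithelia, had a mean of 0.19 ± 0.22, and the desmosomal cadherin Dsc2 one of 0.02 ± 0.07. Dsp, which ties desmosomes to keratin, had 2 values, -0.02 and -0.22, and Dsg2 had 1, of 0.24. Perp, a desmosomal membrane protein and p53 target, was below 0 on all 4 arrays with a mean of -0.37 ± 0.19 and was not called.

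Prostasin (Prss8), a membrane-anchored serine protease, gave 0.63, 0.64, 0.60 and 0.61, the tightest set of arrays among the members called (mean 0.62 ± 0.02, limma adjusted p = 0.00051). Spint2, which inhibits prostasin and matriptase, gave 0.77, 0.38, 0.70 and 0.87, all above 0 (mean 0.68 ± 0.21, limma adjusted p = 0.0018). Matriptase (St14) had 2 values of -0.19 and 0.04 and Spint1 had 1, of 0.20. Among the transcription factors that keep epithelial genes on, Elf3 gave 0.26, 0.13, 0.38 and 0.14 (mean 0.23 ± 0.12, limma adjusted p = 0.032, not called). Grhl2 gave -0.45, 0.69, -0.02 and 0.10, on both sides of 0, with a mean of 0.08 ± 0.47, the widest spread among the tested members that were not called. Ehf had 2 values of 0.04 and -0.23, and Sfn (14-3-3 sigma) had 3 between -0.31 and -0.16.

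**Figure D2:**
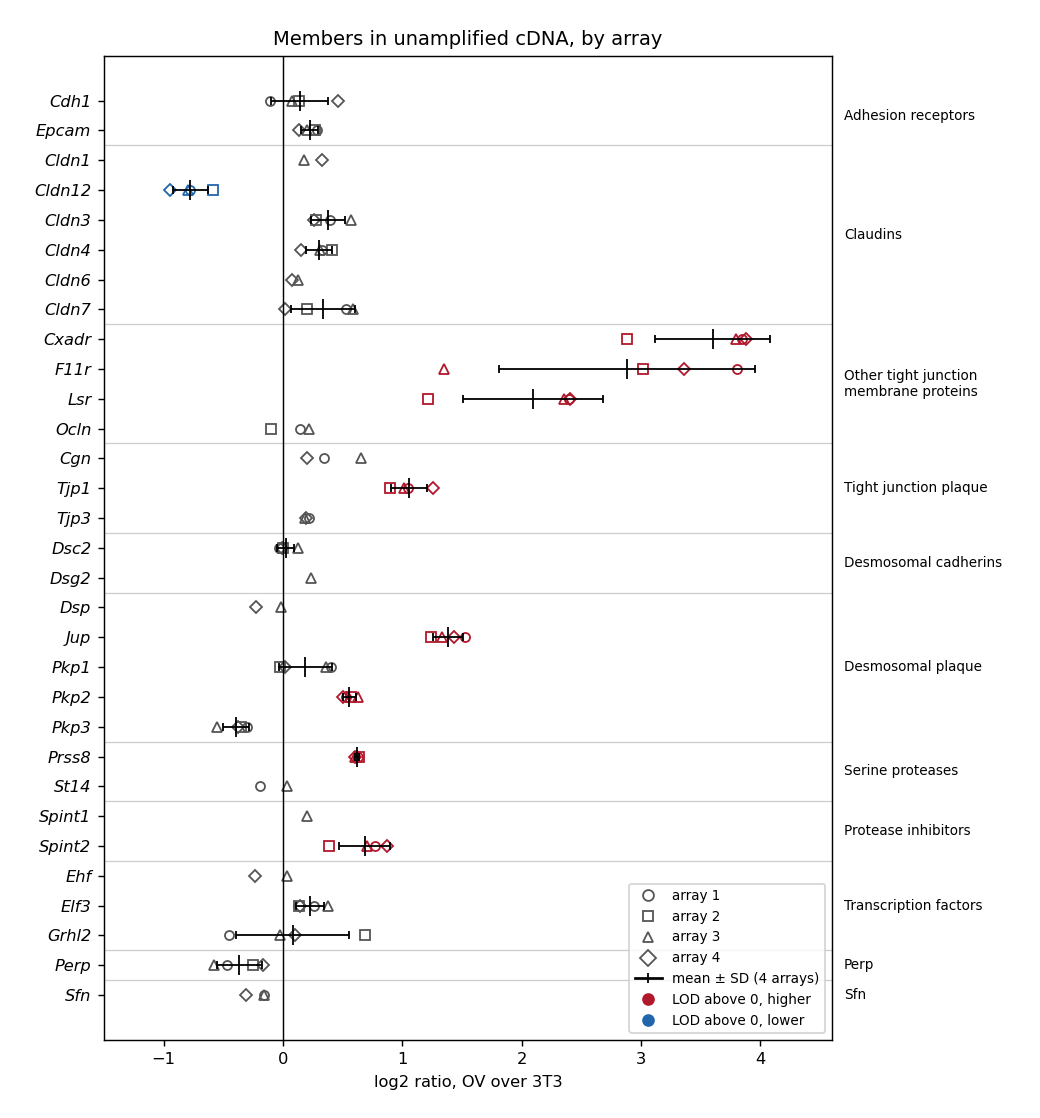
Log2 ratio of OV over 3T3 in unamplified cDNA for the 31 members with a probe, grouped by role. Symbols mark the 4 arrays, and black bars give the mean ± SD of members with 4 values. Cxadr, F11r and Lsr lie farthest to the right with means of 3.60, 2.88 and 2.09, and Cldn12 is the only member called lower, at -0.78.

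With the assumed dye-swap pairs averaged to 2 replicates, Pkp2 was no longer called (limma adjusted p = 0.0036). Leaving out 1 array at a time kept 6 to 8 of the 9 calls. F11r was no longer called without array 1, 2 or 4, Spint2 without array 1, 3 or 4, and Pkp2 without array 1, while the mean ratios stayed at 2.58 to 2.84 for F11r and 0.62 to 0.68 for Spint2 in those fits.

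Promoter windows in the RefSeq table (GRCm38.p6) were at hand for 5 of the members called higher in OV. The 250 bases before their start are shown, together with those of Epcam, which was not called. Capitals mark the letters CAGGTG, an E-box bound by the Snail and Zeb repressors, and GGGCGG, a box bound by Sp and Klf factors, on either strand. The bases are those of each gene's own strand, 5′ to 3′. They lie at chr1:171437311-171437560 (F11r, plus strand), chr7:30973470-30973719 (Lsr, minus), chr7:29281978-29282227 (Spint2, minus), chr7:65371245-65371494 (Tjp1, minus), chr11:100397791-100398040 (Jup, minus) and chr17:87635729-87635978 (Epcam, plus).
F11r: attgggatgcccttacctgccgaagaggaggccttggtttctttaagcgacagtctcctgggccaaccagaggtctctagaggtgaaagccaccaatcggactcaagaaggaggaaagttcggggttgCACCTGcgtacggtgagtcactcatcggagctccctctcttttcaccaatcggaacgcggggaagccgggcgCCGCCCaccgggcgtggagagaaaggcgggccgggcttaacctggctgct
Lsr: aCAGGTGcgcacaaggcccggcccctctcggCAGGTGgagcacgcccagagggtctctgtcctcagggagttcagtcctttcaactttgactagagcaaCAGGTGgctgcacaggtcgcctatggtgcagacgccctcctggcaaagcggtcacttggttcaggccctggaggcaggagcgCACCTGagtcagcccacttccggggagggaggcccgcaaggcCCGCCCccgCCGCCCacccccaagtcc
Spint2: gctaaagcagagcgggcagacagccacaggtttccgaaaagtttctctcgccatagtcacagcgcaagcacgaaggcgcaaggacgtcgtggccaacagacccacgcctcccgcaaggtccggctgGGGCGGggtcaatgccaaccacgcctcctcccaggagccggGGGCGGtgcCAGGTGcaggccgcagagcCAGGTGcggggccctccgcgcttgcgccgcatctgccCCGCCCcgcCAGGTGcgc
Tjp1: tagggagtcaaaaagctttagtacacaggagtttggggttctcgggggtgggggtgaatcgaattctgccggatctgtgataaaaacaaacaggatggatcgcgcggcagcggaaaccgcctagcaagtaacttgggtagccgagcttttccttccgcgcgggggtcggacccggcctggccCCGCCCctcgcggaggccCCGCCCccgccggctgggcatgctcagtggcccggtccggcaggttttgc
Jup: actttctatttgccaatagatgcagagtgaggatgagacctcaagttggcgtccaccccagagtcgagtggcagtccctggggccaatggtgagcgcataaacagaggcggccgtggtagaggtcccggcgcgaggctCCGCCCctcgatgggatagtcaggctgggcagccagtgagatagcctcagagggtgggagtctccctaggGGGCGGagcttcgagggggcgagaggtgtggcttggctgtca
Epcam: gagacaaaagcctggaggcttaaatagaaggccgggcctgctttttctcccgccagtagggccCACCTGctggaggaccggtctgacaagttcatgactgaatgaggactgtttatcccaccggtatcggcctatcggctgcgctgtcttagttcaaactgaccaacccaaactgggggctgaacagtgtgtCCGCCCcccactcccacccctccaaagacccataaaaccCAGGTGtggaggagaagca

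The letters CAGGTG stood 4 times before Lsr, 3 times before Spint2, 2 times before Epcam and 1 time before F11r, and were not in the printed bases of Tjp1 or Jup. GGGCGG stood before all 6. In the whole windows of 300 bases, which run 50 bases past the start, CAGGTG was in 17 of 27 windows of members (63%), which belong to 21 members, beside 20.2% of 32851 windows of all genes. GGGCGG was in 74.1% of member windows beside 35.7%. The ETS letters CAGGAA were in 22.2% beside 30.6%, and the Grainyhead letters ACCGGTT were in no member window beside 1.02%. The longer Grainyhead letters AACCGGTT, which contain the shorter ones, were in none beside 0.146%. Member windows were richer in G and C, with a median of 60.7% beside 52.7%. The E-box letters were in windows of members called higher (F11r, Lsr and Spint2) and of members that were not called (Epcam, Cldn3, Cldn4, Cldn7 and Elf3). These matches describe letters and not binding. Cdh1, Dsg2, Dsc2, Pkp1, Pkp2, Pkp3, St14, Prss8, Ehf, Grhl2, Perp and Cxadr had no entry.

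Other junction genes, taken from lists of their families, gave a setting for the members in unamplified cDNA. The counts of all lists stand beside 8.81% of all genes called higher and 7.31% lower. For the lists of other tight junction genes and of polarity complex genes the counts lie near these shares. Of 25 tested genes of adherens junctions 10 were higher in OV and 1 lower, with a median of 0.15. They were led by the placental cadherin Cdh3 (mean 2.91 ± 0.38), the apical constriction protein Shroom3 (2.46 ± 0.41), the adhesion molecule Nectin2 (1.85 ± 0.39) and Cdh11 (1.21 ± 0.09), a cadherin typical of mesenchymal cells. Cdh2, N-cadherin, gave 0.83, 0.58, 1.02 and 0.85, and Ctnnb1, the catenin that binds cadherin tails, gave 0.93, 0.65, 0.53 and 0.52. Both were higher on all 4 arrays and called, whereas Cdh1 was not. Nectin3 was lower (-1.70 ± 0.62).

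Of 18 other tight junction genes tested, claudin 15 (Cldn15, 1.33 ± 0.47) was called higher and the scaffold Mpdz (-0.54 ± 0.05) lower, with a median of 0.02. Of 7 other desmosome and plakin genes tested, envoplakin (Evpl, 0.67 ± 0.22) was higher and plectin (Plec, -1.37 ± 0.17) and dystonin (Dst, -0.46 ± 0.11) were lower. Of 21 polarity complex genes tested 2 were higher, ezrin (Ezr, 2.98 ± 0.22), which ties the apical membrane to actin, and the Crumbs partner Patj (0.56 ± 0.14), and the basolateral protein Llgl1 (-0.83 ± 0.11) was lower. Of 8 gap junction genes tested the connexin Gja1 (1.81 ± 0.14) was higher and Gjc1 (-0.78 ± 0.20) lower.

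The list of other epithelial identity genes held 14 tested, 5 higher and 2 lower. The simple epithelial keratins Krt8 (3.44 ± 0.48), Krt19 (3.17 ± 0.52) and Krt7 (2.70 ± 0.58) and the collagen receptor Ddr1 (1.45 ± 0.16) were the highest, and the integrin Itga6 (-1.76 ± 0.46) and Krt18 (-0.75 ± 0.25) were lower. Of 11 tested repressors of Cdh1 none was higher and 6 were lower, with a median of -0.70. Foxc2 (-1.14 ± 0.36), Snai2 (-1.08 ± 0.34), Gsc (-0.85 ± 0.26) and Zeb2 (-0.81 ± 0.14) were the lowest called. Zeb1 (-0.35 ± 0.19) and Twist1 (-0.40 ± 0.16) were not called, nor was Snai1 (0.07 ± 0.16). The plot of the lists shows the members with the highest median of the junction lists, and none of these medians was tested against another.

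**Figure D3:**
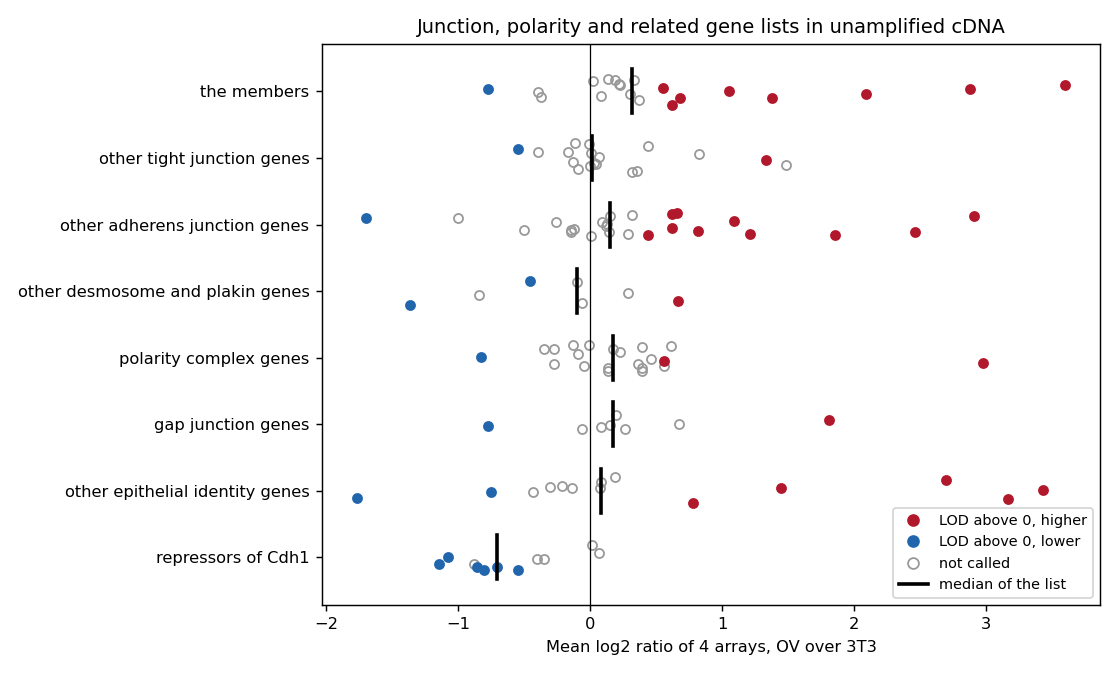
Mean log2 ratio of OV over 3T3 in unamplified cDNA (horizontal axis) for each gene with 4 values in the members and in 7 other lists (rows). Filled points are genes called by limma (red higher, blue lower), open points are genes not called and black bars are medians. The members have a median of 0.32, and the repressors of Cdh1 lie to the left with a median of -0.70.

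The amplified comparisons asked whether the same members were seen from small amounts of RNA. F11r was the member called most often. In IVTIII it gave 0.72, 1.06, 1.02 and 1.42, in SMART 0.80, 2.03, 1.79 and 1.11, in SM37 1.37, 1.36, 1.19 and 1.42, and in SMART at 10 pg 0.71, 1.74, 1.20 and 1.17. It was called higher in each of these 4. In GA it had 3 values, 1.39, 1.92 and 2.19, and was not tested. Outside GA at 10 pg it was thus above 0 on all 23 arrays on which it had a value.

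IVTIII tested 5 members and called 2 higher, beside 11.5% of all genes, and 2 lower, beside 10.4%. Tjp1 gave 1.07, 0.81, 0.60 and 1.02, close to its unamplified values. Pkp3 gave -1.71, -2.22, -1.36 and -1.09 (mean -1.60 ± 0.49, limma adjusted p = 0.00031) and Perp gave -1.01, -1.15, -0.65 and -0.90 (mean -0.93 ± 0.21, limma adjusted p = 0.00032). Both were lower in OV on every array, as in unamplified cDNA, where neither was called.

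GA tested 11 members and called none by LOD, beside 2.09% of all genes called higher and 6.07% lower. At an unadjusted p below 0.05 there were 6 of the 11 members, a threshold at which the share of all genes was not taken. By adjusted p below 0.05 in limma 5 passed, beside 27.9% of all genes: Cldn3, Elf3 and Jup higher and Perp and Pkp3 lower. With the assumed dye-swap pairs as a block the 3 higher ones no longer passed (adjusted p = 0.10, 0.088 and 0.068 in limma). GA arrays correlated at 0.72 and 0.86 within these pairs and at 0.47 to 0.55 across them. SMART tested 11 and called F11r and Cxadr higher, beside 2.53%, and none lower, beside 1.02%. Its arrays followed each other unevenly, with correlations from -0.07 (arrays 1 and 4) to 0.71 (arrays 2 and 3). By adjusted p Lsr passed as well, so that 3 did, beside 7.07% of all genes. Cxadr there gave 0.72, 0.85, 1.07 and 0.45 (mean 0.77 ± 0.26, limma adjusted p = 0.0067), all above 0 and all below its unamplified values. In SMART its call was lost without array 2 (0.75, limma adjusted p = 0.073).

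SM37 tested 14 members and called F11r and Cldn3 higher, beside 3.91%, and none lower, beside 9.09%. By adjusted p 9 passed, beside 42.9% of all genes, 7 higher and Cldn12 and Perp lower. Cldn3 gave 0.60, 0.56, 0.87 and 0.52 (mean 0.64 ± 0.16, limma adjusted p = 0.0019), and this call was lost when array 1, 2 or 3 was left out (mean 0.56 to 0.66). Cdh1 had 3 values in SM37, 0.61, 1.85 and 2.07, higher than any of its 4 unamplified values, 3 in GA, 0.79, 0.53 and -0.20, and 1 in SMART, 0.39. It was measured on no array of IVTIII or of either 10 pg comparison. SMART at 10 pg tested 2 members and called F11r, beside 5.96% of all genes called higher and 2.94% lower.

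In the 5 amplified comparisons other than GA at 10 pg, the remaining values of the adhesion receptors, Ocln and claudins ran from -0.69 to 0.94. Epcam gave 0.20, 0.29 and 0.10 in IVTIII, 0.16 and -0.19 in GA, -0.02 in SMART and -0.54 in SM37. Ocln gave -0.18, -0.09 and -0.13 in GA, -0.21 and 0.30 in SMART and 0.20 in SM37. Both genes thus had values on either side of 0, and neither was tested in any of these. Cldn3 gave 0.33, 0.35, 0.28 and 0.94 in GA, -0.03, 0.17, -0.09 and 0.56 in SMART, -0.24 and -0.05 in IVTIII and -0.09 and -0.01 in SMART at 10 pg. Cldn7 gave 0.03, -0.24 and 0.07 in GA, 0.10, 0.17 and 0.21 in SMART and -0.17, 0.06 and -0.05 in SM37. Cldn12 was above 0 on 1 of 8 arrays and gave -0.13 in GA, 0.05, -0.03 and -0.02 in SMART and -0.44, -0.38, -0.51 and -0.69 in SM37.

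Among the desmosome genes Jup was above 0 on 9 of 9 such arrays, with 0.78 and 0.39 in SMART and 0.17, 0.23 and 0.35 in SM37 beside its 4 GA values. Pkp2 was above 0 on 4 of 4, with 0.05 in GA, 0.06 in SMART and 0.68 and 0.26 in SM37. Perp was above 0 on 2 of 20, and Pkp3 on 3 of 13, all 3 of them in SMART at 0.08, 0.09 and 0.05.

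Of the members not given by array, Cgn was above 0 on 4 of 4 such arrays, Cldn4 on 12 of 14, Cldn6 on 7 of 9, Tjp3 on 7 of 10, Cldn1 on 5 of 9, Ehf on 4 of 5, Spint1 on 5 of 7, Pkp1 and St14 on 2 of 3 each, Dsc2 on 5 of 13 and Sfn on 4 of 10.

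Lsr gave 0.19 and -0.05 in GA and 0.18, 0.27 and -0.04 in SM37, all below its lowest unamplified value of 1.21. Elf3 was above 0 on 14 of 15 such arrays. It gave 0.08, 0.44, 0.59 and 0.61 in GA, 0.03, 0.00, 0.13 and 0.34 in SMART, 0.50, 0.71, 0.46 and 0.18 in SM37 and 0.03, 0.30 and -0.02 in IVTIII. Grhl2 gave 0.30, 0.18, -0.09 and -1.10 in IVTIII, 0.11, 0.38 and 1.13 in GA, -0.12 and -0.26 in SMART and -0.05 in SM37. It was above 0 on 5 of 10, and its 2 probes did not follow each other: in unamplified cDNA only 1 of them had values, and on the GA array where both did they gave 0.03 and 0.72.

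Next, each amplified ratio was compared with the unamplified ratio of the same member. The 6 tests share the 4 unamplified arrays and were made by limma over all genes with 8 values, with a call at an adjusted p below 0.05. All 21 calls among members were of a lower ratio than in unamplified cDNA. Of these, 18 concerned members that were called higher in OV in the same 4 unamplified arrays that serve as the baseline. The shares of all genes given beside the counts take in genes of any unamplified ratio. Whether members differ here from other genes with high unamplified ratios was not tested. For SMART the study reports a linear reduction of expression ratios, which was not tested for the members. Over all genes, a higher ratio than in unamplified cDNA was called for 25% in IVTIII, 7.03% in GA, 7.53% in SMART, 14.5% in SM37, 20% in SMART at 10 pg and 15.7% in GA at 10 pg.

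For Cxadr the ratio was lower by GA (difference -3.21, SE 0.25, limma adjusted p = 0.00010), by SMART (-2.83, SE 0.22, adjusted p = 3e-05 in limma) and by SM37 (-3.57, SE 0.21, adjusted p = 3.7e-06 in limma). The GA arrays gave 0.35, 0.02, 0.35 and 0.85 and the SM37 arrays -0.22, 0.06, 0.04 and 0.25, so no amplified array reached the lowest unamplified value of 2.88. For F11r the difference was -1.82 in IVTIII, -1.45 in SMART, -1.55 in SM37 and -1.68 in SMART at 10 pg (limma adjusted p = 0.0052, 0.045, 0.013 and 0.012). The arrays overlapped in each of these, the third unamplified array being the low one. In SMART the call was lost without any 1 array other than unamplified array 3, whereas in IVTIII, SM37 and SMART at 10 pg it was kept without any 1 array. Lsr was lower in SMART, where it gave 0.55, 1.09, 0.93 and 0.24 (difference -1.39, SE 0.27, limma adjusted p = 0.0048).

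GA called 5 of 11 members, beside 14.3% of all genes with a lower ratio: Cxadr, Jup, Prss8, Tjp1 and Spint2. Jup in GA gave 0.88, 0.48, 0.36 and 0.26, a difference of -0.89 (limma adjusted p = 0.0040). Tjp1 gave 0.70, 0.47, -0.35 and -0.13 in GA (difference -0.88, limma adjusted p = 0.020) and 0.47, 0.15, -0.08 and -0.27 in SMART (difference -0.99, limma adjusted p = 0.0016). In both, the 2 arrays of the first assumed dye-swap pair lay above 0 and the 2 of the second below. The tests of difference took the arrays as independent and were not run with these pairs as a block. Without unamplified array 1 or array 4, GA called Cxadr, Jup and Prss8 only.

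SMART called 6 of 11, beside 10.5% with a lower ratio: Cxadr, F11r, Lsr, Prss8, Spint2 and Tjp1. Prss8 gave -0.01, -0.63, -0.21 and -0.64 in SMART and -0.28, -0.10, 0.01 and 0.33 in GA, differences of -0.99 and -0.63 (limma adjusted p = 0.0010 and 0.013). No array of either reached the lowest unamplified value. Spint2 lay between -0.17 and 0.23 on all 12 arrays of GA, SMART and SM37, with differences of -0.54, -0.65 and -0.59 (limma adjusted p = 0.017, 0.0063 and 0.0054).

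SM37 called 3 of 9, beside 23.2% with a lower ratio, IVTIII 3 of 5, beside 23.1%, and SMART at 10 pg 1 of 2, beside 14.8%. In IVTIII the members other than F11r were Pkp3 (difference -1.20, SE 0.21, limma adjusted p = 0.00092) and Perp (-0.56, SE 0.14, limma adjusted p = 0.0071), which were below 0 in both and farther below in IVTIII. The GA values of Pkp3, -0.40, -0.43, -0.35 and -0.44, gave a difference of -0.01 (SE 0.11), and for Perp in GA it was -0.07 (SE 0.13). With values on 3 of 4 arrays allowed, SM37 called 7 members, among them Cdh1, Jup, Lsr and Prss8. The share of all genes was not taken in this setting. Of these named members Cdh1 had a higher ratio in SM37, with a mean of 1.51 beside 0.14 in unamplified cDNA. Jup, Lsr and Prss8 had a lower one.

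**Figure D4:**
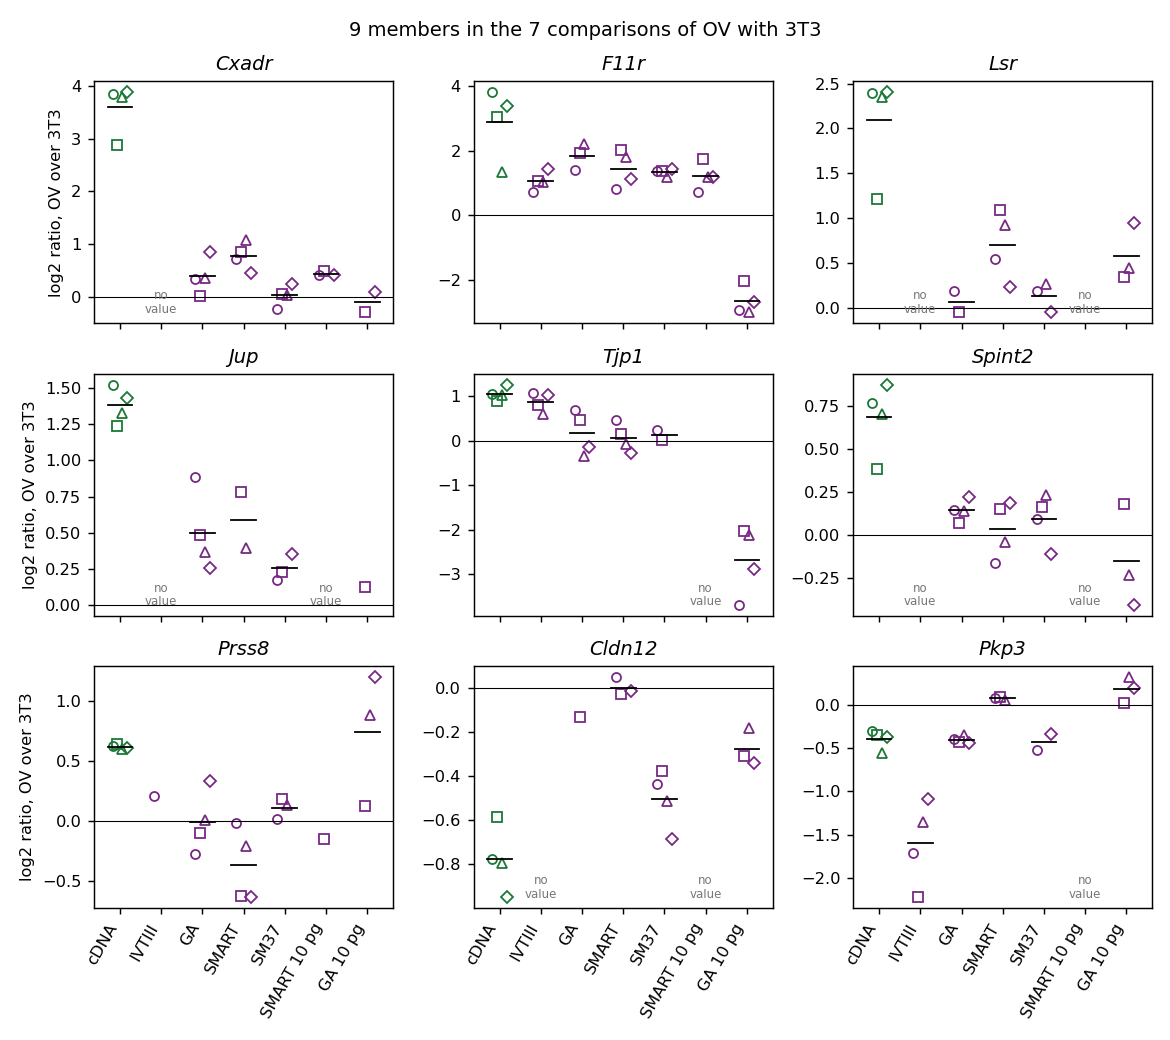
Log2 ratio of OV over 3T3 (vertical axes, with a scale of its own for each gene) in the 7 comparisons for 9 members, with symbols for the 4 arrays and black bars for means. Unamplified arrays are green and amplified ones purple. For Cxadr the unamplified arrays lie between 2.88 and 3.88 and no amplified array exceeds 1.07, and F11r is positive everywhere except in GA at 10 pg.

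GA at 10 pg gave another picture of the same genes. F11r gave -2.92, -2.01, -2.98 and -2.66 (mean -2.64 ± 0.44, limma adjusted p = 0.0033) and Tjp1 gave -3.68, -2.02, -2.12 and -2.89 (mean -2.68 ± 0.77, limma adjusted p = 0.0073). Both were called lower in OV, of 8 members tested, beside 2.69% of all genes called lower, and none was called higher, also beside 2.69%. Tjp1 was no longer called without array 3 or array 4. The differences from unamplified cDNA were -5.52 for F11r, -3.73 for Tjp1 and -0.67 for Elf3 (limma adjusted p = 8.6e-05, 0.00012 and 0.025). These were 3 of 8 members, beside 20.3% of all genes with a lower ratio. When 3 of 4 values sufficed 10 members were called, and without array 1, which had values for 8 members only, 9 were. For these settings the share of all genes was not taken, so the counts show nothing particular to the members. Elf3 gave -0.13, -0.27, -0.49 and -0.87 there, below 0 on each array. Prss8, with 3 values of 0.13, 0.89 and 1.20, and Lsr, with 0.35, 0.44 and 0.95, were above 0. Epcam gave 0.40, 0.61, -0.71 and 0.11 and Dsp gave 0.17, -0.08 and -0.27. In the other 6 comparisons together, neither F11r nor Tjp1 was called lower.

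Where both channels held targets of the same OV RNA, or of aliquots of the same stem cell RNA, no member's mean passed 2-fold in any of the 16 groups of 1 or 2 arrays. On single arrays 5 values did, in GA at 10 pg for Tjp1 (-1.12), F11r (-1.05), Dsp (-1.20) and Grhl2 (1.30) and in GA at 100 pg for Tjp1 (-1.10). Among all genes the share past 2-fold was 0.0508% and 0.00806% for unamplified cDNA in the self-self and the replica hybridisation, and it was 11% for replicas of GA at 10 pg. For GA it was 0.085% in the self-self hybridisation, 0.632% in replicas from 10 ng, 0.503% from 1 ng, 2.31% from 100 pg and 0.858% from stem cells. For SMART it was 0.013% from 10 ng, 0% from 1 ng and 100 pg, 0.604% from 10 pg and 0.0732% from stem cells, and for SM37 1.27%. IVTIII gave 0% in the self-self hybridisation and 1.38% in replicas. The means of 7 members in all were past a log2 ratio of 0.5, 5 of them of 22 in GA at 10 pg, where 28.8% of all genes were. These were Dsp at -0.98, Grhl2 at 0.91, Tjp1 at -0.81, F11r at -0.77 and Sfn at -0.52. The other 2 were Spint2 at -0.59, 1 of 5 members in SM37 beside 14.2% of all genes, and Cldn3 at -0.56, 1 of 16 in GA on neural stem cell RNA beside 16.7%. These counts lie near the shares over all genes.

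**Figure D5:**
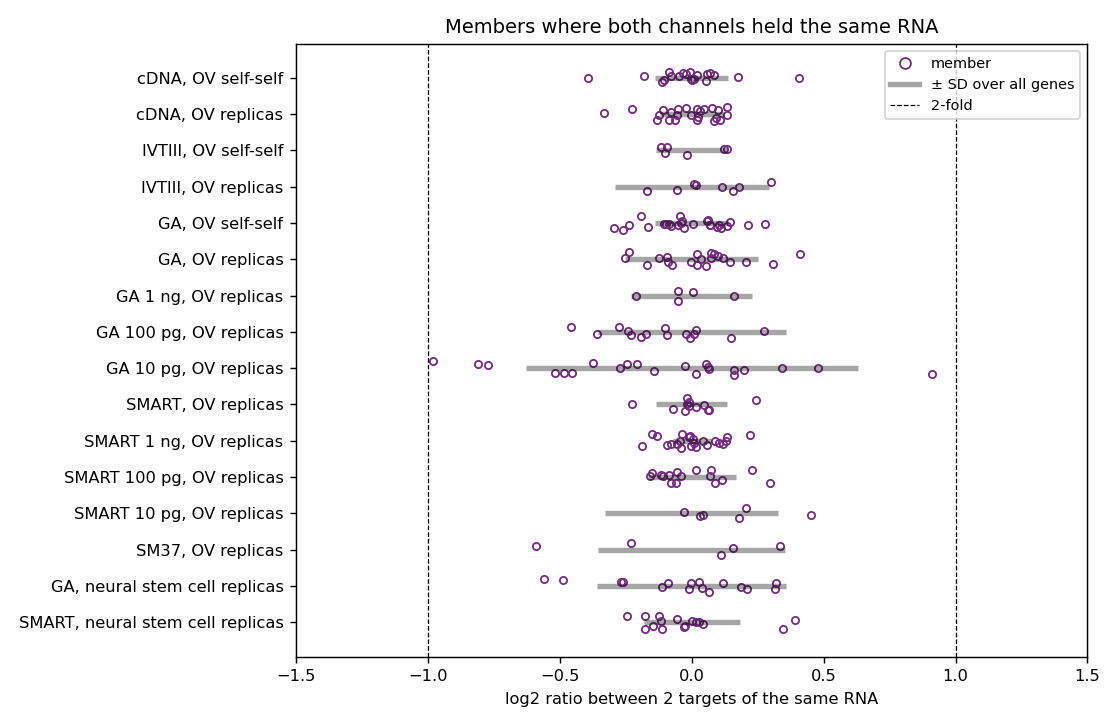
Log2 ratio between both channels (horizontal axis) for each member in the 16 groups of arrays hybridised with the same RNA in both channels, as the mean of the arrays of a group. Grey bars give ± 1 SD over all genes and dashed lines a 2-fold difference. No point passes a dashed line, and the widest spread is in GA at 10 pg, from -0.98 to 0.91.

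Between replicas of GA at 10 pg the 2 members called in the comparison of the lines stood apart from 0 on both arrays, Tjp1 at -1.12 and -0.50 and F11r at -1.05 and -0.50. This was not particular to them. Most members there kept 1 sign on both arrays, Dsp (-0.76 and -1.20) and Grhl2 (1.30 and 0.53) among them. Cldn7, Cldn12 and Ehf had values on both sides of 0. In unamplified replicas Tjp1 and F11r gave 0.02 each. The spread over the 22 members measured there was 0.45 (SD), beside 0.63 over all genes, whereas over the 23 members in SMART replicas titled 1 ng it was 0.10 beside 0.07.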

How the data were processed

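Log2 ratios of both dyes were deposited for 56 two-colour arrays. The authors scanned the slides, subtracted background and applied a lowess fit per print tip in limma, whose version is not given in the sources used here. Missing values are frequent, their reason is not stated, and no intensities are given, so that depth is unknown and the number of arrays limits the precision. Samples were grouped by the titles in the labels, and all columns had a sample. Where a description or channel name conflicted with a title the title was followed, and amounts are those of the study's methods or the titles. Ratios were turned to OV over 3T3 by the dye labels, 231 control probes were left out, and probes of one symbol (16632 of 21997, with 439 symbols updated by gene identifier) were averaged to 14958 genes. Of the other probes 139 had several symbols and 4995 had none, and they were not used.

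Genes measured on all 4 arrays were tested against 0 with limma 3.58.1 in R 4.3.3 (lmFit and eBayes, prior proportion 0.01), and an LOD above 0 was called, which is the threshold the study's methods name. Adjusted p-values are Benjamini-Hochberg values over all genes of a fit. Differences from unamplified cDNA were tested in limma over 8 arrays at an adjusted p below 0.05. Arrays of the same RNA in both channels have no test, and a log2 ratio past 1 was counted. Tables and plots used Python 3.11.15 with pandas 2.3.3 and matplotlib 3.10.9. The fits were also run on simulated data with known changes, with noise drawn independently for each array. Such data cannot show how the calls fare where arrays share a preparation. The members and gene lists were chosen with earlier results of these data known. Members called in unamplified cDNA or differing from it, and Cdh1, Epcam, Cldn3, Cldn7, Ocln, Tjp1, Dsp, Jup, Grhl2 and Elf3, were named whatever their values. Of other lists up to 4 genes called in each direction with the largest ratios were named, with Cdh2, Ctnnb1, Gja1, Snai1, Snai2, Zeb1, Zeb2 and Twist1 in any case, and 1 further gene of that rule is not reported here. Alternatives were the threshold, 3 of 4 values, a fit by probe, a replicate block of assumed dye-swap pairs, scaling or centring of arrays, a dye term, robust variance, another prior and leaving out each array. The labels do not say which arrays form a dye-swap pair. Taken as arrays 1 with 2 and 3 with 4, the pairs had a consensus correlation from -0.277 (SMART at 10 pg) to 0.453 (GA at 10 pg).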

Additional observations from a re-analysis of the deposited data

Results flagged for a closer look

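In 3 of 71 sets of 4 arrays 1 array lay far from the others, where chance gives about 1 in 20 sets. In unamplified cDNA array 2 was low for Lsr, at 1.21, and for Cxadr, at 2.88. It gave the lowest value of 5 of the 8 members called higher there, and it had the fewest genes with a value of the 4 arrays. In GA array 4 was high for Cldn3, at 0.94.

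The other results to look at again are the differences from unamplified cDNA, each by limma's test of the difference, and all with the same 4 unamplified arrays. In IVTIII the ratio was lower for F11r (-1.82), Pkp3 (-1.20) and Perp (-0.56). In GA it was lower for Cxadr (-3.21), Jup (-0.89), Tjp1 (-0.88), Prss8 (-0.63) and Spint2 (-0.54). In SMART it was lower for Cxadr (-2.83), F11r (-1.45), Lsr (-1.39), Prss8 (-0.99), Tjp1 (-0.99) and Spint2 (-0.65). In SM37 it was lower for Cxadr (-3.57), F11r (-1.55) and Spint2 (-0.59), and in SMART at 10 pg for F11r (-1.68). In GA at 10 pg the differences were -5.52 for F11r, -3.73 for Tjp1 and -0.67 for Elf3, in the comparison whose mean ratios correlated at -0.06 with those of unamplified cDNA.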

How the results depend on the processing

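No called result turned its direction under any alternative run. In 5 cases the mean ratio of a member that was not called changed sign when 1 array was left out: Grhl2 in unamplified cDNA (-0.12 without array 2), Grhl2 in IVTIII (0.13 without array 4), Tjp1 in GA (-0.0033) and SMART (-0.07), both without array 1, and Epcam in GA at 10 pg (-0.07 without array 2). By adjusted p in place of LOD, the members called became 16 in place of 9 in unamplified cDNA, 5 in place of 0 in GA and 9 in place of 2 in SM37. With 3 of 4 values allowed GA called 1, F11r, and the members differing from unamplified cDNA became 7 in place of 3 in SM37, 2 in place of 1 in SMART at 10 pg and 10 in place of 3 in GA at 10 pg. Shares of all genes were not taken for these fits or for the refits that follow, so the counts show nothing particular to the members. With arrays scaled to 1 spread SM37 called 4, GA at 10 pg called 1 in place of 2, and in SMART at 10 pg 0 members differed from unamplified cDNA in place of 1. With the assumed dye-swap pairs as a replicate block GA at 10 pg called 1 (F11r) and SMART 3, and no other count of calls moved (9 in unamplified cDNA, 4 in IVTIII, 0 in GA, 2 in SM37 and 1 in SMART at 10 pg). With the pairs averaged, an alternative chosen after seeing the data, SM37 called 1, unamplified cDNA 8 (without Pkp2) and SMART 3 (with Lsr). With the hybridization number as a replicate block, which pairs no RNA, the members differing from unamplified cDNA were 3 in IVTIII, 5 in GA, 5 in SMART, 3 in SM37, 1 in SMART at 10 pg and 2 in GA at 10 pg. At a log2 ratio of 0.5 there were 7 members past the threshold on same-RNA arrays in place of 0, in groups where 28.8%, 14.2% and 16.7% of all genes passed it. Leaving out 1 array at a time gave 6 to 8 calls in unamplified cDNA, 4 in IVTIII, 0 to 1 in GA, 1 to 3 in SMART, 1 to 2 in SM37, 1 in SMART at 10 pg and 1 to 2 in GA at 10 pg, and a median ratio of the members in unamplified cDNA from 0.27 to 0.35. The members differing from unamplified cDNA were then 3 in IVTIII, 3 to 5 in GA, 5 to 6 in SMART, 3 to 5 in SM37, 1 to 2 in SMART at 10 pg and 2 to 9 in GA at 10 pg. For single members 18 alternatives ended a call and 9 added one, with the direction kept in each. With fewer arrays or more genes admitted the set of genes tested changes too, and the cause of the other changes was not tested. With no intensities, a ratio near 0 cannot be told apart from a gene without signal in both lines.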
